A study of Mus musculus with 12 samples.

Results

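The question here was whether quadriceps muscle of mice given AICAR and GW1516 together responded as the sum of its responses to each drug alone. The measure was the interaction on the log2 scale: the combination's group mean less those of AICAR and GW1516, with that of vehicle added. It is 0 where the effects add as log2 differences, that is, where the folds multiply. All 12 arrays of the series enter it, in 4 groups of 3: GW1516 with AICAR, AICAR alone, GW1516 alone, and vehicle. The C57Bl/6J mice were dosed for 6 days with AICAR (250 mg/kg/day) and GW1516 (5 mg/kg/day) together, with either drug alone at the same dose, or with vehicle, and every array carried the pooled RNA of 3 mice. The labels give no genetic change, age or sex for any group, and no dose series, so additivity was read at 1 dose of each drug. They do not say whether pools of a group shared mice, and p-values therefore measure the spread between these pools.

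AICAR is an adenosine analogue that cells phosphorylate to a mimic of AMP, which activates the AMP-activated protein kinase (AMPK). AMPK senses low cellular energy, promotes fuel use, and phosphorylates transcription factors and coactivators. GW1516 is a synthetic agonist of PPARδ, a nuclear receptor that pairs with RXR on DNA and drives genes of fatty acid uptake, mitochondrial import and oxidation in muscle. A gene that both drugs reach may answer the pair with the sum of its answers, with more (synergy), with less than its larger single answer (antagonism), or with about the larger single answer (a shared ceiling).

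Markers of fast muscle were present on every array. Of 20 fast-twitch fibre genes 18 were among the genes tested. Markers of other cells passed the filter as well (17 of 20 for fat cells), so that count does not tell tissues apart. The signal of Myh4, the fast IIb myosin heavy chain, ran from 23260 to 32005 over the 12 arrays. These genes do not single out quadriceps. Every array had a trimmed mean signal of 200, as MAS5 scaling sets it, and correlations between arrays ranged from 0.947 to 0.968. The second GW1516 array held the extreme place on the first principal component, which carried 13.4% of the variance, so values without it are given where it moves a result. Fat cell markers varied within every group: summed over 17 markers, the signal was 39160, 28770 and 23500 on the combination arrays, 24500, 33870 and 43490 on the AICAR arrays, 28590, 19670 and 36090 on the GW1516 arrays, and 30760, 21590 and 24430 on the vehicle arrays. Their part in the results below was not tested. In RNA from whole muscle, fewer cells of a type and less RNA per cell cannot be told apart.

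No gene of the 12771 tested had an interaction at an adjusted p under 0.05 (limma with Benjamini-Hochberg adjustment, 0%), and the smallest adjusted p was 0.703. At an unadjusted p under 0.05 there were 848 genes (6.64%), 420 with an interaction above 0 (3.29%) and 428 below 0 (3.35%). The median interaction over all genes was -0.00, with an interquartile range of -0.23 to 0.20. Each interaction takes in 4 group means, and its median standard error was 0.27, against 0.19 for a difference between 2 groups. At that standard error the 95% interval reaches 0.57 to either side, so for a typical gene an interaction under this size falls short of even the unadjusted threshold. The adjusted one asks for more: Polh, at 1.08 ± 0.21, had an adjusted p of 0.703. The gene closest inside the threshold was Scfd2 (interaction -0.43, limma, unadjusted p = 0.05), and the closest outside was Dcaf7 (0.32, unadjusted p = 0.0501). Leaving out each array in turn, 298 of the 848 kept p under 0.05 in 12 of 12 fits, and 552 kept it without GW1516 replicate 2.

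The 848 genes were sorted by their values with a margin of 0.3 on the log2 scale. Synergy needs the combination to exceed the larger single-drug difference in size by the margin, and in its direction wherever that difference reached the margin. Antagonism needs a single-drug difference of at least the margin, from which the combination fell short by at least the margin. A shared ceiling needs both drugs past the margin on 1 side of vehicle and the combination within the margin of the larger. This gave 28 synergy genes, 399 antagonism genes and 64 shared ceiling genes, and 357 met none of the 3 definitions. Without the condition on p, 4.6% of all genes had the synergy shape, 16.5% the antagonism shape and 4.95% the ceiling shape. The sort uses the contrast's own values, so the classes are a description, with no test. The vehicle arrays enter all 3 differences and the interaction, so choosing genes by a large interaction favours those with both drugs on 1 side of vehicle. This was so in 777 of the 848, a count tied to that choice.

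**Figure D1:**
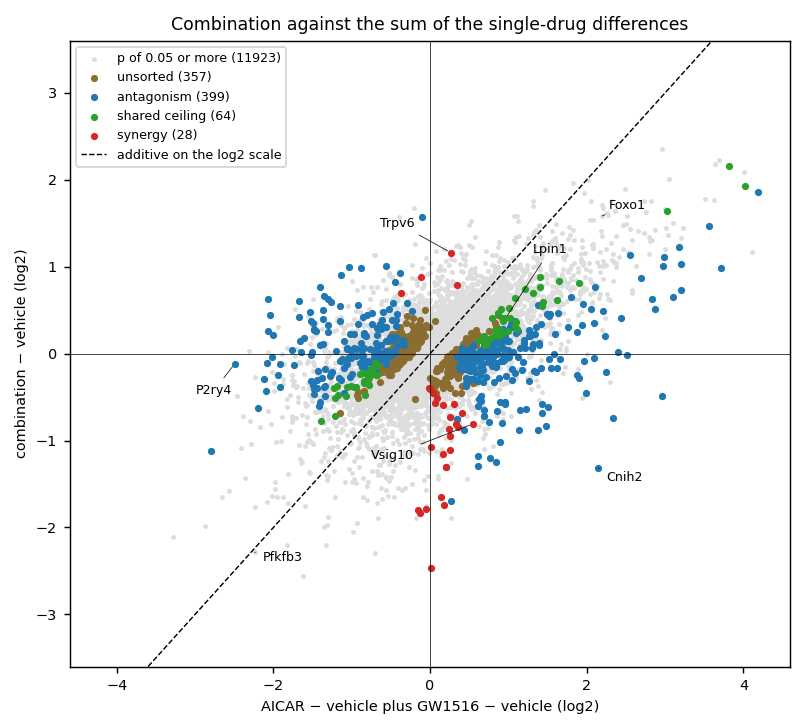
Each point is a gene, with the sum of the AICAR and GW1516 differences from vehicle on the horizontal axis and the combination's difference from vehicle on the vertical axis, both in log2; the dashed line marks additivity and colours mark the sort of the 848 genes. Blue antagonism genes (399) lie mostly along the horizontal line at 0 (264 within 0.3 of it), green ceiling genes (64) lie between that line and the dashed one, and red synergy genes (28) lie above or below the centre, 24 of them below 0.

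Across the 3 comparisons with vehicle, limma called 37 genes: 33 for the combination (0.258%), 1 for AICAR (0.00783%) and 12 for GW1516 (0.094%), with some called in more than 1. For 31 of the 37 the 95% interval of the interaction included 0, and for 6 it did not, while it excluded 0 in 6.64% of all genes tested. The interaction opposed the combination's direction in 23 and went with it in 14. Its range over the 37 was -0.69 in Exosc5 to 0.47 in Col22a1. These calls share arrays with the interaction, so the split of directions is a description.

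Pfkfb3, whose enzyme makes fructose 2,6-bisphosphate, an activator of glycolysis, had the largest fall under the combination among the genes called. Its signal was 906.9, 491.6 and 778.9 on the combination arrays, 1668, 1551 and 1092 on the AICAR arrays, 2122, 1907 and 1342 on the GW1516 arrays, and 3954, 3226 and 3151 on the vehicle arrays. The combination arrays lay below both sets of single-drug arrays, and all of these lay below vehicle. The differences from vehicle were -2.29 for the combination (adjusted p = 0.000432), -1.28 for AICAR (adjusted p = 0.129) and -0.96 for GW1516 (adjusted p = 0.229). The combination thus stood at 102% of the sum, with an interaction of -0.05 ± 0.31 (SE) and a 95% interval of -0.72 to 0.63. A second probe set gave the same interaction, -0.05. Additivity depends on the scale here: on linear signal divided by the gene's mean, the interaction of Pfkfb3 was 0.51 (limma, unadjusted p = 0.011, adjusted p = 0.724), so in signal units the combination took off less than the sum of what each drug took off.

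The promoter windows of 4 genes are shown because these genes stand for the additive pattern and for the less than additive ones among the genes called: Pfkfb3 for the sum, Lpin1 and Plin4 for the ceiling, and Foxo1 just outside the interaction threshold. They are RefSeq windows of GRCm38.p6, from 250 bases before to 50 bases after the annotated start, 5′ to 3′ on the gene's strand. Capitals mark an E-box (CACGTG) or a GC box (GGGCGG on either strand). Pfkfb3 has 2 windows, and the one shown was chosen for its E-box, since the other holds 3 GC boxes and no E-box. The window shown is at chr2:11502041-11502340 (minus strand), Lpin1 is at chr12:16610917-16611216 (minus), Plin4 at chr17:56109733-56110032 (minus) and Foxo1 at chr3:52268087-52268386 (plus).
Pfkfb3: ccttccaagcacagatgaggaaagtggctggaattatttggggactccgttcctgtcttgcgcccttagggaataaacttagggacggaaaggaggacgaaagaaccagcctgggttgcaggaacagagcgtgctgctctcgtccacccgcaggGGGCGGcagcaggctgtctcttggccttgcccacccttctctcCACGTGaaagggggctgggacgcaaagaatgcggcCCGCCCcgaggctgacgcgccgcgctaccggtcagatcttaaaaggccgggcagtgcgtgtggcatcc
Lpin1: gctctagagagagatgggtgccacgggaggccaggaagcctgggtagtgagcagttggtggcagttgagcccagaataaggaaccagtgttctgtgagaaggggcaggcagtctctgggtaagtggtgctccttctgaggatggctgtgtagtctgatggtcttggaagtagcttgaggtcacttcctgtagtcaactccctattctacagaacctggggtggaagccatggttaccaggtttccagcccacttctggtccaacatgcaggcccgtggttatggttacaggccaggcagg
Plin4: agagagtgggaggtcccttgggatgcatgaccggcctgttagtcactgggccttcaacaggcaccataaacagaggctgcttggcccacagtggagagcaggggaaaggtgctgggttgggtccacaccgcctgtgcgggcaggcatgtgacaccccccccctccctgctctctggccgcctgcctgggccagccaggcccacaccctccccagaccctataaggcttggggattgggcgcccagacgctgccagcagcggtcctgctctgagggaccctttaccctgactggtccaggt
Foxo1: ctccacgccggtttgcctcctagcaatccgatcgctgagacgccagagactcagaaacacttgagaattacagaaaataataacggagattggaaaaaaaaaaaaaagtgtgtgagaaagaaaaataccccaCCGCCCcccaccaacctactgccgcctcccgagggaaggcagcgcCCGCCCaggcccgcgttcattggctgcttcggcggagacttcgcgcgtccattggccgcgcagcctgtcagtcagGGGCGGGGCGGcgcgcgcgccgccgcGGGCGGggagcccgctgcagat
The Pfkfb3 window shown holds 1 E-box, at position -53 from the start, and 2 GC boxes. The Foxo1 window holds 5 GC boxes, some of them overlapping. The Lpin1 and Plin4 windows hold none of the 5 motifs searched.

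The circadian repressors Nr1d1, which encodes REV-ERBα, and Bhlhe40 were also near the sum. Nr1d1 had signals of 524.4, 492.8 and 510.9 on the combination arrays, 702.2, 599.3 and 504.5 on the AICAR arrays, 1105, 667.5 and 727.2 on the GW1516 arrays, and 1016, 985 and 927.8 on the vehicle arrays. It fell under the combination by 0.94 (adjusted p = 0.0346), which was 96.3% of the sum, and its interaction was 0.04 ± 0.23 (-0.11 without GW1516 replicate 2) with a 95% interval of -0.45 to 0.52. Its combination arrays overlapped with the third AICAR array and lay below all GW1516 and vehicle arrays. Bhlhe40, an E-box repressor, fell by 0.81 (adjusted p = 0.0451) with an interaction of 0.06 ± 0.21 (-0.09 without that array). The interactions of Crat, the carnitine acetyltransferase, and Coq10a, a coenzyme Q binding protein, were 0.04 and 0.01 with intervals of -0.20 to 0.27 and -0.22 to 0.24, among the tightest of the 37.

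Genes of fatty acid use called for GW1516 or the combination had intervals that included 0, apart from Lpin1 and Plin4 described below. Ucp3, a mitochondrial uncoupling protein, had signals of 2722, 2854 and 3050 on the combination arrays, 1417, 1757 and 1091 on the AICAR arrays, 2301, 3218 and 2559 on the GW1516 arrays, and 1178, 894.9 and 1079 on the vehicle arrays. Combination and GW1516 arrays overlapped, and both lay above all AICAR and vehicle arrays. Its interaction was -0.31 ± 0.23 (-0.18 without GW1516 replicate 2, and -0.14 on a second probe set), and the combination reached 82.4% of the sum. Acadl, the long-chain acyl-CoA dehydrogenase, stood at 85.0% of the sum (interaction -0.17 ± 0.16, or -0.06 without GW1516 replicate 2) and Mlycd, which removes malonyl-CoA, at 78.5% (-0.27 ± 0.26, or 0.03 without GW1516 replicate 2). Pdk4, the kinase that shuts pyruvate dehydrogenase, stood at 74.9% (-0.44 ± 0.34), and its interaction was -0.13 without GW1516 replicate 2. Slc25a20, the carnitine-acylcarnitine carrier, and Fbp2, muscle fructose bisphosphatase, lay on the other side at 157% and 123% of the sum, with interactions of 0.28 ± 0.16 and 0.24 ± 0.18.

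Fbp2, with a standard error of 0.18 against a median of 0.27 over all genes, also had an interval that included 0. Its signal was 2622, 2982 and 2661 on the combination arrays, 1241, 1254 and 1094 on the AICAR arrays, 2448, 1717 and 2387 on the GW1516 arrays, and 1228, 1010 and 1096 on the vehicle arrays. All combination arrays exceeded all GW1516 arrays, while AICAR and vehicle arrays overlapped. The interval was -0.14 to 0.62, and the value without GW1516 replicate 2 was 0.08.

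**Figure D2:**
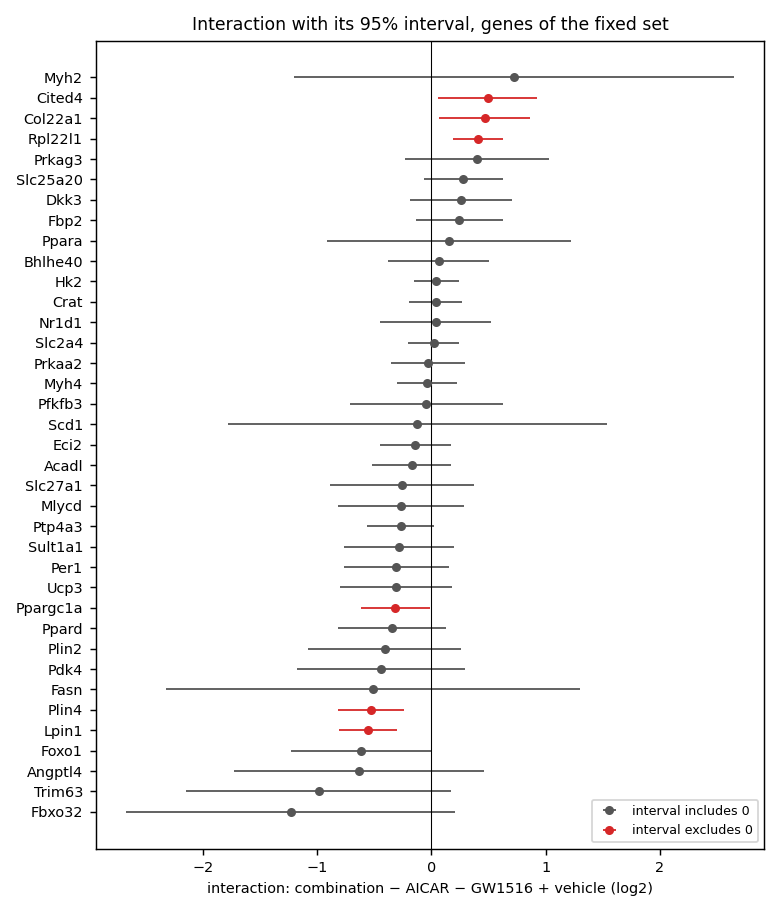
Interaction (log2) of the 37 measured genes of a fixed set of PPAR, AMPK, metabolic and fibre genes, as points with 95% intervals over the 12 arrays. Intervals in red exclude 0: Cited4, Col22a1 and Rpl22l1 above 0, and Ppargc1a, Plin4 and Lpin1 below it, all at unadjusted p and none at an adjusted p under 0.05.

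Foxo1, a transcription factor of fasting and muscle atrophy, stood at the edge. Its signal was 763.2, 909.8 and 716.5 on the combination arrays, 644.7, 709.2 and 666.9 on the AICAR arrays, 307, 660.2 and 531.9 on the GW1516 arrays, and 261.8, 254.4 and 276.4 on the vehicle arrays. All 9 drug arrays lay above vehicle, and all combination arrays lay above all single-drug arrays. The differences from vehicle were 1.59 for the combination (adjusted p = 0.00405), 1.35 for AICAR (adjusted p = 0.0561) and 0.85 for GW1516 (adjusted p = 0.252). The combination reached 72.1% of the sum, with an interaction of -0.61 ± 0.29 (limma, unadjusted p = 0.0507). Both other probe sets gave values on the same side, -0.81 (unadjusted p = 0.00865) and -0.67 (unadjusted p = 0.043). Without GW1516 replicate 2 the interaction was -0.38, and on the linear scale it was -0.20 of the gene's mean signal.

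The clearest shared ceilings were 2 lipid genes called against vehicle. Lpin1 encodes lipin 1, which is both a phosphatidate phosphatase of triglyceride synthesis and a coactivator of PPARα with PGC-1α. Its signal was 5787, 5802 and 6015 on the combination arrays, 6013, 5886 and 5409 on the AICAR arrays, 6155, 7551 and 6301 on the GW1516 arrays, and 4195, 4498 and 4616 on the vehicle arrays. The combination arrays overlapped with AICAR, lay below every GW1516 array and lay above vehicle. The differences from vehicle were 0.40 for the combination, 0.38 for AICAR and 0.58 for GW1516, of which GW1516 passed (adjusted p = 0.015). The interaction was -0.56 ± 0.12 with a 95% interval of -0.81 to -0.30 (limma, unadjusted p = 0.00035, adjusted p = 0.703), and the combination reached 42.1% of the sum. A second probe set gave -0.52 (unadjusted p = 0.00877), the value without GW1516 replicate 2 was -0.46, and p stayed under 0.05 in 12 of 12 omissions of an array.

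Plin4, a perilipin that coats lipid droplets, came next. Its signal was 4789, 5318 and 5018 on the combination arrays, 3828, 4447 and 4503 on the AICAR arrays, 4310, 5488 and 4357 on the GW1516 arrays, and 2761, 2726 and 2731 on the vehicle arrays. The combination lay above AICAR on every array, overlapped with GW1516, and every drug array lay well above vehicle. It rose by 0.88 under the combination (adjusted p = 0.000996) and by 0.78 under GW1516 (adjusted p = 0.00583), and AICAR stood at 0.63 (adjusted p = 0.0561). The interaction was -0.53 ± 0.14 (unadjusted p = 0.00169), at 62.4% of the sum. Plin4 is also abundant in fat. The fat cell markers summed above had a median interaction of -0.82, on the same side, and their part was not tested.

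Other ceiling genes were not called against vehicle. Arrdc2, an arrestin-domain gene, had signals of 2040, 2055 and 1664 on the combination arrays, 1878, 2135 and 2056 on the AICAR arrays, 1738, 2597 and 2346 on the GW1516 arrays, and 659.2, 1282 and 1527 on the vehicle arrays. All 9 drug arrays lay above vehicle, whose own first array was far below the other 2, and the interaction was -1.09 ± 0.33 (unadjusted p = 0.00553). On the lower side, Lppos, a non-coding transcript opposite Lpp, had signals of 604.1, 560.9 and 599.4 on the combination arrays, 468.9, 477.1 and 616.7 on the AICAR arrays, 656, 471.4 and 645.6 on the GW1516 arrays, and 862.3, 849.5 and 802.2 on the vehicle arrays. All drug arrays lay below vehicle with the 3 treatments overlapping, and the interaction was 0.71 ± 0.19. Pdp1, the phosphatase that reopens pyruvate dehydrogenase, differed from vehicle by -0.32 in the combination, -0.39 in AICAR and -0.46 in GW1516. Cited4, a CBP/p300 partner regulated by exercise, differed by -0.72, -0.79 and -0.43 in the same order. Chrna1, the acetylcholine receptor subunit of the neuromuscular junction, differed by -0.48, -0.48 and -0.59, with an unadjusted p of 0.0499. Map3k6, a stress kinase, differed by 0.84, 0.96 and 0.69. Rora, a nuclear receptor of the clock, differed by 0.41, 0.32 and 0.69, and its interaction of -0.61 was -0.28 without GW1516 replicate 2. The other Rora probe sets gave -0.63 to 0.09, none at an unadjusted p under 0.05 (limma).

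The 64 ceiling genes were the brightest of the 3 classes, with a median signal of 335, against 108.6 for antagonism and 59.7 for synergy, where the filter on dim probe sets stood at 28.2. In 36 the combination was above vehicle and in 28 below. Their median size of difference was 0.37 for the combination, 0.44 for AICAR and 0.47 for GW1516. All vehicle arrays lay outside the range of the other 9 in 29 of them, against 2.5% of all genes. That count is tied to the definition, which needs both drugs on 1 side of vehicle. Of the 64, 37 kept an interaction p under 0.05 without GW1516 replicate 2, and 22 kept it in 12 of 12 omissions.

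Antagonism was the largest class, and in most of it the combination lay close to vehicle. Of 399 genes, 264 were cancelled (the combination within 0.3 of vehicle), 50 were partial and 85 were reversed. The median size of difference was 0.18 for the combination, against 0.42 for AICAR and 0.47 for GW1516. The strictest form has all 6 combination and vehicle arrays on 1 side of all 6 single-drug arrays. Over all genes 49 showed it (0.384%), 26 with combination and vehicle above and 23 below, and 32 of them were in this class. This count and the small median of the combination are tied to the choice of genes by their interaction. Both are also tied to the sort, which needs the combination to fall short of a single-drug difference by the margin.

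The smallest p of all genes belonged to Polh, a translesion DNA polymerase, at 0.000145. Its signal was 190, 191.4 and 210.9 on the combination arrays, 144.1, 139.9 and 186.1 on the AICAR arrays, 142.6, 150.3 and 180.5 on the GW1516 arrays, and 250.1, 265.3 and 267.3 on the vehicle arrays. The combination lay between the single drugs, below it, and vehicle, above it, with no overlap. The differences from vehicle were -0.40, -0.75 and -0.73 for the combination, AICAR and GW1516, and the interaction was 1.08 ± 0.21.

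Cntfr, the receptor for ciliary neurotrophic factor, a cytokine that acts on nerve and muscle, had signals of 175.3, 166.9 and 303.4 on the combination arrays, 135.9, 140.8 and 117.3 on the AICAR arrays, 165.1, 93.2 and 92.5 on the GW1516 arrays, and 215.5, 272.1 and 275.5 on the vehicle arrays. Every combination and vehicle array exceeded every single-drug array. The third combination array stood above the other 2 and above vehicle. The interaction was 1.83 ± 0.36 (unadjusted p = 0.00016), and 0.88 on a second probe set (unadjusted p = 0.0513).

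Exosc5, a subunit of the RNA exosome, was the 1 antagonism gene called against vehicle. Its signal was 302.3, 294 and 279.4 on the combination arrays, 307.8, 304.5 and 272.6 on the AICAR arrays, 380.3, 393.9 and 396.4 on the GW1516 arrays, and 238, 249.6 and 243 on the vehicle arrays. It rose by 0.68 under GW1516 (adjusted p = 0.0178). The combination (0.26) and AICAR alone (0.27) overlapped in their arrays, and all of them lay below GW1516. The interaction was -0.69 ± 0.14 with a 95% interval whose upper end was -0.39, and adding GW1516 to AICAR gave a difference of -0.01.

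Ndufaf1, an assembly factor of respiratory complex I, had signals of 910.2, 915 and 932.7 on the combination arrays, 735.2, 799 and 806.2 on the AICAR arrays, 741.6, 678.9 and 730 on the GW1516 arrays, and 885, 1034 and 864.3 on the vehicle arrays. All combination and vehicle arrays lay above all single-drug arrays, and the interaction was 0.61 ± 0.13. Neu2, a cytosolic sialidase expressed in muscle, differed from vehicle by 0.10 in the combination, -0.35 in AICAR and -0.28 in GW1516, with an interaction of 0.72. Cmss1 differed by -0.03, -0.34 and -0.54, with an interaction of 0.86 that was -0.03 on a second probe set, and Pla2g7, which breaks down platelet-activating factor, by -0.27, -0.58 and -0.44. On the other side, Nudt18, a nucleotide hydrolase, differed by 0.24, 0.62 and 0.47, with an interaction of -0.86. P2ry4, a receptor for UTP, had an interaction of 2.38 ± 0.58, and Tssk4, a kinase best known from testis, -2.37 ± 0.59, at signals between 13.9 and 70.2 and between 18.0 and 64.2. The widest interaction of all was that of Cnih2, an AMPA receptor partner, at -3.46 ± 0.76. Its combination signals were 15.9, 9.60 and 8.39, against 31.8, 29.9 and 20.8 on the vehicle arrays, so the reversal lies below or near the dim filter.

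Probe sets of a gene did not always give the same interaction. Vapb, an endoplasmic reticulum contact protein, had 1.20 ± 0.25 on its brightest probe set and 0.11 and 0.08 on the other 2. For genes with a second probe set past the filter, the second had the same sign as the first in 69.2% of 143 antagonism genes and 72.5% of 40 ceiling genes. It was 2 of 8 in synergy (25%), and 58.7% over all 5781 genes with a second probe set.

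Synergy was the smallest class, and 24 of its 28 genes were lower in the combination than in vehicle. The median size of difference was 0.85 for the combination, 0.12 for AICAR and 0.10 for GW1516. Where single-drug differences were under the margin, the sort did not ask for their direction, so the combination could lie on the other side of vehicle. The class held 113 genes without combination replicate 1 and 15 without GW1516 replicate 3. All combination arrays lay outside the range of the other 9 in 19 of the 28, a pattern that 239 of all genes showed (1.87%), 99 above and 140 below. The 19 are tied to the definition, which needs the combination to exceed the larger single-drug difference in size by the margin. Vsig10, an immunoglobulin superfamily membrane protein, had signals of 36.3, 33.2 and 28.2 on the combination arrays, 72.8, 62.9 and 69.2 on the AICAR arrays, 66.8, 73.8 and 66.9 on the GW1516 arrays, and 59.5, 57.4 and 53.6 on the vehicle arrays. The combination lay below all 9 others and near the dim filter, while all single-drug arrays lay above all vehicle arrays. The differences from vehicle were -0.81 for the combination, 0.26 for AICAR and 0.28 for GW1516. The interaction was -1.35 ± 0.36 (limma, unadjusted p = 0.00227).

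Nlrx1, a mitochondrial regulator of innate immunity, had signals of 252, 249.3 and 323.4 on the combination arrays, 393.8, 420.8 and 421.8 on the AICAR arrays, 375.4, 370.3 and 422.3 on the GW1516 arrays, and 392, 338 and 438.2 on the vehicle arrays. Its combination arrays were the lowest 3 of the 12, and the interaction was -0.60 ± 0.18. Slc20a1, a phosphate importer, had signals of 171.7, 169.5 and 167.3 on the combination arrays, 242, 250.5 and 231.2 on the AICAR arrays, 263.5, 390.6 and 271.5 on the GW1516 arrays, and 224.3, 235.5 and 317.1 on the vehicle arrays. Again the combination lay below all others, at an interaction of -0.75 ± 0.23. Ebf1, a transcription factor of B cells and fat cell precursors, had -0.89 ± 0.30, and its 3 other probe sets gave -0.32, -0.78 and -1.65. Abcc8, the sulfonylurea receptor, had -1.20 (0.51 on a dimmer probe set), the sodium-activated potassium channel gene Kcnt1 -1.10, and the erythropoietin receptor gene Epor -1.31, all at signals of 133 or less.

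Ifngr2, a subunit of the interferon gamma receptor, was the 1 synergy gene called against vehicle. Its signal was 1017, 1179 and 1098 on the combination arrays, 787.9, 872.5 and 804.5 on the AICAR arrays, 765.9, 517.2 and 609.8 on the GW1516 arrays, and 685.4, 540.8 and 689.5 on the vehicle arrays. The combination lay above all others, AICAR came next, and GW1516 overlapped with vehicle. It rose by 0.79 under the combination (adjusted p = 0.0346), against 0.37 for AICAR and -0.03 for GW1516. The interaction was 0.44 ± 0.19 (unadjusted p = 0.0363), kept p under 0.05 in 4 of 12 omissions, and was -0.10 on a second probe set. The other 3 higher in the combination were Csdc2, an RNA-binding protein gene, Trpv6, a calcium channel, and Kcnj3, a potassium channel, at interactions of 1.00, 0.89 and 1.06. With its probe sets averaged, Csdc2 stood at -0.45.

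**Figure D3:**
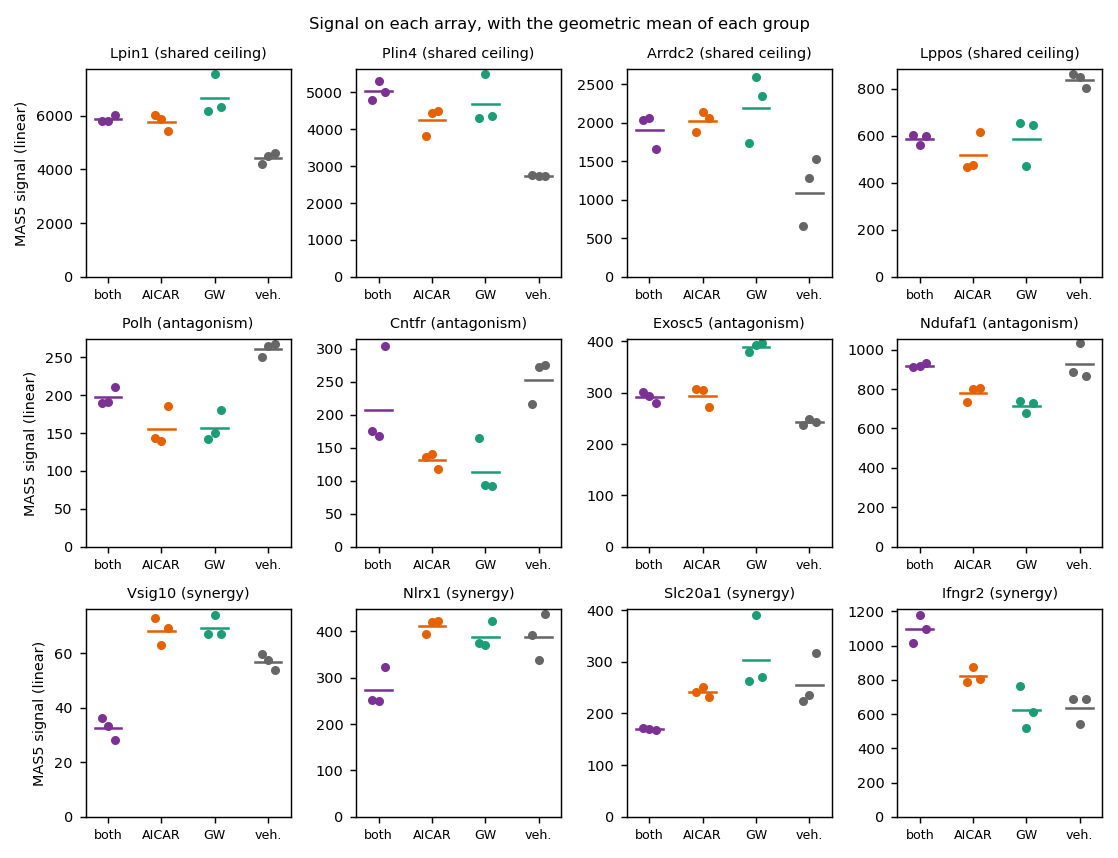
MAS5 signal (linear axis from 0) on each array for 4 genes of each class, with points for arrays and bars for the geometric mean of the group, from left to right the combination (both), AICAR, GW1516 (GW) and vehicle (veh.). In the top row the 3 drug groups lie together and away from vehicle, in the middle row the combination lies nearer to vehicle than GW1516 does, and in the bottom row the combination lies apart from the other 3 groups.

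Not every interaction in a called gene took 1 of the 3 shapes. Rpl22l1, which encodes a relative of ribosomal protein L22 and was the 1 gene called for AICAR, had signals of 2931, 2960 and 2939 on the combination arrays, 2662, 2720 and 2759 on the AICAR arrays, 3665, 3493 and 3164 on the GW1516 arrays, and 3999, 4181 and 4433 on the vehicle arrays. The groups did not overlap and ran from AICAR, the lowest, through the combination and GW1516 to vehicle. The interaction was 0.41 ± 0.10 (unadjusted p = 0.00135), and AICAR made less difference beside GW1516 (-0.22) than alone (-0.63). Col22a1, a collagen of tissue junctions, had an interaction of 0.47 ± 0.19, and its other probe sets gave 0.02 and -0.35.

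The effect of each drug was also read with and without the other, in differences that share no array. GW1516 added to AICAR (combination minus AICAR) was set against GW1516 alone (GW1516 minus vehicle). Of 12 genes called for GW1516 alone, 11 had the same sign when it was added to AICAR, with Exosc5 the exception. GW1516 added to AICAR gave 4 calls of its own (0.0313%): Fbp2 rose by 1.20 (adjusted p = 0.00217), Ucp3 by 1.04 (adjusted p = 0.0461), Slc25a20 by 0.84 (adjusted p = 0.023) and Acadl by 0.75 (adjusted p = 0.0461). At an unadjusted p under 0.05 it gave 935 genes (7.32%). The differences of those 4 under GW1516 alone were 0.96, 1.35, 0.56 and 0.92 in the same order. AICAR added to GW1516 (combination minus GW1516) gave 0 calls by limma (0%), with 1326 genes at an unadjusted p under 0.05 (10.4%).

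Genes chosen at an unadjusted p in one difference were small in the other, whichever was used to choose them. Of 1231 genes at an unadjusted p under 0.05 for GW1516 alone (9.64%), 737 (59.9%) had the same sign when GW1516 was added to AICAR, and the median size in that direction was 0.04, against 0.40 alone. Of 885 such genes for AICAR alone (6.93%), 562 (63.5%) had the same sign beside GW1516, at a median of 0.09, against 0.51 alone. In the reverse direction, 935 genes chosen on GW1516 added to AICAR had a median of 0.43 there and 0.05 for GW1516 alone (59.8% of the same sign), and 1326 chosen on AICAR added to GW1516 had 0.44 there and 0.06 for AICAR alone (60.3%). Over all genes the shares of the same sign were 53.3% for GW1516 and 53.2% for AICAR. Genes taken for a low p in a difference are larger there by that choice, so the drop is not particular to the added effects. Across the 12771 genes, the correlation of the added with the alone effect was 0.06 for GW1516 and 0.13 for AICAR, a description in which genes are not independent replicates.

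**Figure D4:**
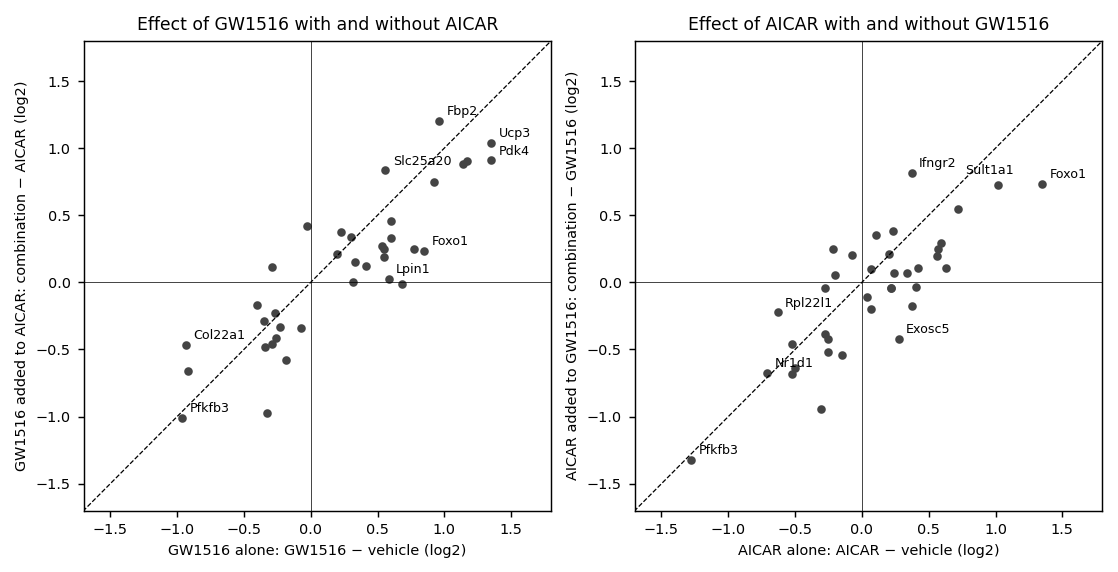
For the 37 genes called against vehicle, the log2 effect of a drug alone (horizontal) against its effect when added to the other drug (vertical), for GW1516 at left and AICAR at right; the dashed line marks equal effects, that is, an interaction of 0. Fbp2, Ucp3 and Pdk4 at left and Pfkfb3 in both panels lie far from 0 on both axes, while Lpin1 at left lies at 0.03 on the vertical axis.

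Gene lists were read by the interactions of their members beside those of all genes. PPAR target genes had a median interaction of -0.24 (8 of 25 above 0 and 17 below), and -0.13 without GW1516 replicate 2. Plin4 and Pnpla2, the adipose triglyceride lipase, were its members at p under 0.05, both below 0, where 3.35% of all genes were. Pnpla2 stood at -0.70, or -0.38 without that array, with GW1516 replicate 2 at a signal of 5667 and the other 2 GW1516 arrays at 2620 and 3156. Mitochondrial fatty acid oxidation genes had a median of 0.04 (15 of 23 above 0), with none at p under 0.05. The lipid uptake and storage list stood at a median of -0.32, and 18 of its 20 members were below 0, 3 of them at p under 0.05 (3.35% of all genes). Among these 3 was Vldlr, the VLDL receptor, at -0.40, or -0.24 without GW1516 replicate 2. Its other probe sets gave -0.61 to 0.18. Of the fat cell markers, only Ghr had p under 0.05, and it lay above 0, where 3.29% of all genes were, at 0.39 (0.20 and 0.57 on its other probe sets). Of the 17 markers 14 lay below 0, at a median of -0.82, or -1.14 without GW1516 replicate 2, where the uptake list was at -0.28. The part of these markers was not tested. Among them Adipoq, the gene of adiponectin, had signals of 3219, 1923 and 1094 on the combination arrays, 1122, 2658 and 4385 on the AICAR arrays, 1771, 1355 and 3054 on the GW1516 arrays, and 2096, 660 and 1241 on the vehicle arrays. Each group thus spanned more than its distance to the others.

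Genes of the respiratory chain lay on the opposite side. Of 44 oxidative phosphorylation genes, 41 had an interaction above 0 and 3 below, at a median of 0.19, and 8 had p under 0.05, all above 0, where 3.29% of all genes did. All 18 genes of the TCA cycle list lay above 0, at a median of 0.18. Ndufs1, a core subunit of complex I, had signals of 5635, 5219 and 6044 on the combination arrays, 4927, 5016 and 4951 on the AICAR arrays, 5460, 4079 and 4719 on the GW1516 arrays, and 5587, 5752 and 5433 on the vehicle arrays. AICAR was lower than combination and vehicle on every array, GW1516 overlapped with both, and the interaction was 0.42 ± 0.13. Ndufb5, Sdhd of complex II and Cyc1 of complex III stood at 0.36, 0.38 (-0.36 on a dimmer probe set) and 0.36 (0.23 without GW1516 replicate 2), and Dlat and Pdhx of the pyruvate dehydrogenase complex at 0.33 and 0.26. Against the vehicle mean, the oxidative phosphorylation list had per-array medians of 0.05, 0.02 and 0.11 in the combination, -0.07, -0.05 and -0.06 in AICAR, 0.13, -0.23 and -0.13 in GW1516, and -0.01, 0.02 and -0.02 in vehicle. Without GW1516 replicate 2 the median interaction was 0.12 for each of these lists. Members of a list share pools and vary together, so the counts are not counts of independent genes.

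Atrophy and FOXO genes and proteasome subunits lay below 0, and 1 array carried much of the size of their medians. Of 28 atrophy genes 26 were below 0, 6 of them at p under 0.05 where 3.35% of all genes were. Their median of -0.39 was -0.13 without GW1516 replicate 2, and without that array 6 members of the list again had p under 0.05. Of 32 proteasome subunits 30 were below 0, at -0.19 and -0.06 without that array. Fbxo32, the atrophy ubiquitin ligase atrogin-1, had signals of 2140, 1953 and 1749 on the combination arrays, 2123, 2541 and 2293 on the AICAR arrays, 1507, 11253 and 2607 on the GW1516 arrays, and 1995, 1839 and 1574 on the vehicle arrays. The second GW1516 array stood far above the other 11, and the interaction of -1.23 was -0.40 without it. Trim63, the ligase MuRF1, had a signal of 10734 on that array, and its interaction of -0.99 was -0.30 without it. The metallothionein genes Mt1 and Mt2 stood at -1.37 and -1.54, and at -0.82 and -1.07 without it. A dim second probe set of Mt1 gave 0.73. Ddit4, an inhibitor of mTORC1, stood at -1.19, and at -0.73 without it. Markers of some other cells were low on the same array, while endothelial markers stood at a median of 0.002 against the vehicle mean. There, the matrix and fibroblast list lay at a median of -1.20 against the vehicle mean, with a summed signal of 21230, against 39250 to 54820 on the other 11 arrays. Macrophage and antigen presentation genes had a median of -0.61 and a summed signal of 3836, against 4484 to 6898 on the others. Their part in the lists was not tested.

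Among the drug targets, Ppard, which encodes PPARδ, stood at -0.34 ± 0.22 (-0.17 without GW1516 replicate 2), Prkaa2, the muscle AMPK catalytic subunit, at -0.03 ± 0.15 (0.11 without it), and Ppara at 0.15 ± 0.50. Of 18 AMPK subunits and regulators, 2 had p under 0.05, where 6.64% of all genes did: Tbc1d1, a Rab GTPase activator that AMPK phosphorylates, at -0.95 ± 0.35 (0.09, 0.39 and -0.01 on its other probe sets), and Stk11, the upstream kinase LKB1, at -0.28 ± 0.11. Of 21 nuclear receptors and coregulators, 3 did, all below 0 (3.35% of all genes): Lpin1, Rxrb, a partner of PPARδ, at -0.48 ± 0.16, and Ppargc1a, which encodes PGC-1α, at -0.32 ± 0.14. Ppargc1a had signals of 569.6, 508.5 and 579.5 on the combination arrays, 670.3, 694.4 and 607.8 on the AICAR arrays, 634.1, 613.7 and 535.5 on the GW1516 arrays, and 606.3, 555.6 and 540.1 on the vehicle arrays. AICAR was higher than the combination and vehicle on every array by a small margin. With the mean of its probe sets the interaction of Ppargc1a was 0.09 and that of Stk11 was 0.13, on the other side of 0. The median of the fast-twitch fibre list was 0.01, with none at p under 0.05 among 18. The slow-twitch fibre list had a median of 0.14, with none at p under 0.05 among 13, and varied within groups. Against the vehicle mean, its per-array medians were 0.44, -0.39 and 0.33 in the combination and 0.31, -0.18 and -0.52 in GW1516. In AICAR they were 0.16, -0.05 and 0.17, and in vehicle -0.08, 0.02 and 0.13. The part of fibre content in the other lists was not tested. Clock genes had a median of -0.02 with 9 on either side of 0.

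**Figure D5:**
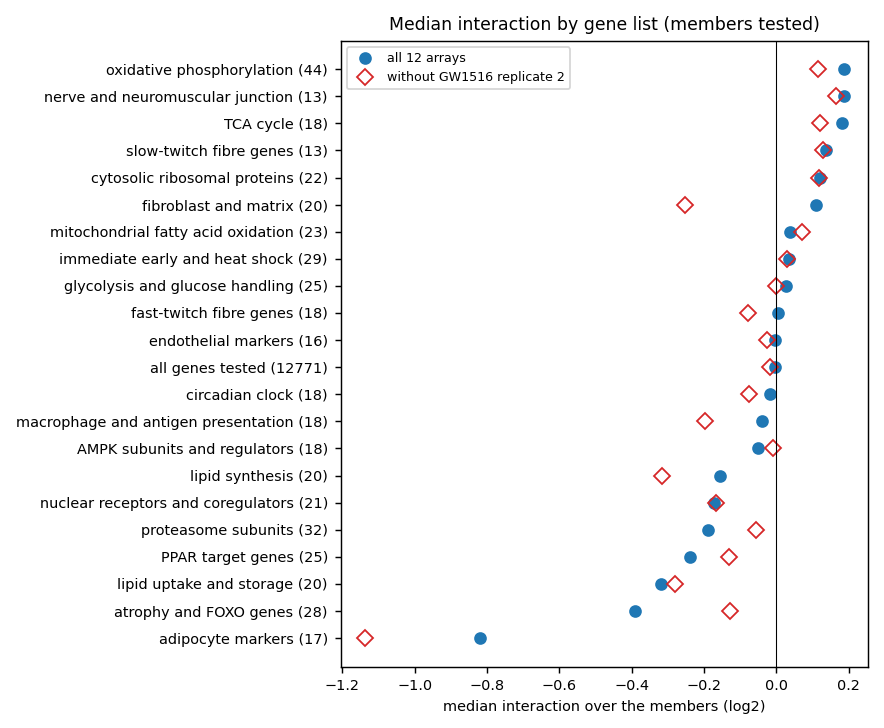
Median interaction (log2) over the tested members of each gene list, with the number tested in brackets, for all 12 arrays (filled circles) and without GW1516 replicate 2 (open diamonds). Without that array atrophy genes move to -0.13 and proteasome subunits to -0.06, while adipocyte markers move to -1.14.

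Promoter windows were available for 86 of the 105 named genes tested, and motifs were counted in them as letters only. Over all 32851 RefSeq windows, the E-box CACGTG was in 7.15%, the CRE TGACGTCA in 1.79%, the FOXO motif TGTTTAC in 3.65%, the GC box GGGCGG in 35.7%, and the PPAR response element, AGGTCA repeated after any 1 base, in 0.0396%, on either strand. The E-box was in 3 of 31 windows of synergy genes, 37 of 430 of antagonism genes and 5 of 82 of ceiling genes, against 9.58% of windows of all genes tested. The GC box was in 16, 253 and 45 of these windows, against 58.9% of windows of all genes tested. The PPAR response element was in none of the windows of the 3 classes, which says only that these letters are not in these windows.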

How the data were processed

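Gene expression was measured in 12 arrays of mouse quadriceps, 3 for each of 4 groups taken from the sample titles. The deposited intensity values are MAS5 signals on a linear scale, per the submitters' processing notes, and the version is not given in the sources used here. Gene names came from the platform's annotation of 2016. Of 45101 probe sets, 64 controls were left out, signals under 1 were set to 1, log2 was taken, and the lowest 40% by mean log2 were dropped. The brightest probe set stood for each gene, giving 12771 genes.

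One mean per group was fitted with limma 3.58.1 in R 4.3.3, with variances moderated along a trend, on 8 degrees of freedom from the arrays and 5.91 from the prior. Tests were two-sided, with Benjamini-Hochberg adjustment over all genes. The code was tested on simulated data. Named genes were the 8 of smallest p in each class and direction, a fixed set of 38 genes of which 37 are reported here, up to 4 members of each of 22 lists at p under 0.05, and the genes next to the threshold. Genes called against vehicle were also described, as were Coq10a and Adipoq, chosen after their values were seen. Classes, lists and members were chosen with earlier results of these data known. Normalization, floor, filter, probe set summary, variance model, scale, margin, threshold, replicate term and each array were varied. Motifs were counted in RefSeq promoters of GRCm38.p6. Figures were drawn with matplotlib 3.10.9.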

Additional observations from a re-analysis of the deposited data

How the results depend on the processing

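The count of 0 genes at an adjusted p under 0.05 held in all 12 settings other than omissions and in the 12 omissions of an array, while the 848 genes at an unadjusted p under 0.05 numbered 687 to 1327 over the omissions, 1327 being without GW1516 replicate 1. Fitting all 27022 probe sets past the filter, chosen after seeing the data, gave 1716 probe sets at p under 0.05. That is a count of probe sets, where the 848 are out of 12771 genes. With the replicate block 0 genes were called and 816 had p under 0.05, with 25 synergy, 387 antagonism and 66 ceiling genes. Same-numbered arrays did not vary together in any of 18 pairs (correlations of -0.11 to 0.07). That check cannot exclude a batch shared by same-numbered arrays.

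Synergy (28) numbered 12 with a filter of 60%, 46 with array weights, 4 at p under 0.01, and 15 to 113 over the omissions, with 113, 57 and 45 without combination replicates 1, 2 and 3, 15 without GW1516 replicate 3, and 16, 18 and 16 without vehicle replicates 1, 2 and 3. Antagonism (399) numbered 632 without a filter, 247 with a filter of 60%, 611 and 189 with margins of 0.2 and 0.5, 103 at p under 0.01, and 342 to 666 over the omissions, with 666 without GW1516 replicate 1. Shared ceilings (64) numbered 39 with a margin of 0.5, 11 at p under 0.01, and 43 to 100 over the omissions, with 100 without vehicle replicate 2. The stricter filter, margins and p change how many genes can enter; the cause of the other shifts was not tested. On the linear scale there were 0 calls, 849 at p under 0.05, and 21, 366 and 68 genes in the 3 classes. Of 2404 values of named genes under 23 alternatives, 5 turned the sign of an interaction at p under 0.05, all where probe sets of a gene were averaged: Irgq -0.13, Enpp4 -0.0057, Csdc2 -0.45, Stk11 0.13 and Ppargc1a 0.0912. The number of arrays limits the precision, and synergy genes, at a median signal of 59.7, sit nearest to background.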
